A study of Mus musculus with 12 samples.

Results

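The 36 genes described here encode the proteins that license and copy DNA and the enzymes that supply deoxynucleotides for it. They were taken by gene name from the deposited expression table, where all 36 were found among 55862 genes. By role they comprise the 6 subunits of the MCM2-7 helicase core, 5 genes of origin recognition and licensing, 5 partners of the helicase, 6 genes of the sliding clamp and its loader, 8 genes of the replicative polymerases and primase, 2 genes of Okazaki fragment maturation and 4 genes of nucleotide supply.

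RNA was sequenced from 12 samples of mouse brain cells, 3 in each of 4 groups, to ask how expression changed when astrocytes were grown as spheres and how the spheres compared with cells named neural precursor cells (NPCs). ASTs were primary astrocytes from the cerebral cortex of newborn pups, freed of meninges, grown as a passaged monolayer in medium with serum and taken at 0 days of sphere incubation. A-iSCs were made from ASTs by growing them for 5 days as floating spheres over agarose, to which cells do not adhere. P56-NPCs were cells dissociated from the subependymal zone of mice aged 56 days and P0-NPCs were cells dissociated from the hippocampus of pups aged 0 days. No sorting of the dissociated cells was stated, so the NPC groups could hold every cell type of the tissue that survived dissociation. The NPC groups also differed from each other in both age and brain region. The labels give C57BL/6 for every sample, and the study's methods give C57BL/6J for the mice of both NPC groups. No genotype change, transgene or agent was named for any group. The methods speak in general of 3 independent experiments, but no source ties the 3 sequenced samples of a group to separate animals or cultures. If they were not separate, the p-values measure only technical spread.

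DNA replication is prepared in G1, when the origin recognition complex, with Cdc6 and Cdt1, loads the MCM2-7 ring onto DNA. In S phase Cdc45 and the GINS complex join the ring to make the active CMG helicase, DNA polymerase alpha with its primase lays down primers, and polymerases epsilon and delta extend them while held by the PCNA ring, which replication factor C loads. Ribonucleotide reductase, thymidylate synthase and thymidine kinase provide the deoxynucleotides. Many of these genes are transcribed under control of E2F factors as cells enter the cycle, so they are widely read as a sign of cycling cells. Astrocytes of newborn rodents divide in medium with serum, and in the adult subependymal zone only a minority of cells divide.

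Each sample held between 17077780 and 24452419 fragments on genes. Expression is given as FPKM, fragments scaled to the length of the gene and the depth of the sample, and 3 fragments correspond to between 0.103 and 0.187 FPKM for a gene of 1 kilobase. AST replicate 2 and A-iSC replicate 3 stood apart from the other samples of their groups, with a chi-square per degree of freedom of 39.49 or more for AST replicate 2 against 2.51 between the other 2 ASTs, and of 75.46 or more for A-iSC replicate 3 against 12.28 between the other 2 A-iSCs. Members whose call changed without either sample, or whose groups overlapped through 1 of them alone, are named with each comparison. No pair of samples agreed within sampling noise. The astrocyte markers summed to between 143 and 161 FPKM in ASTs, between 1211 and 2467 FPKM in A-iSCs, between 2834 and 3072 FPKM in P56-NPCs and between 238 and 303 FPKM in P0-NPCs, and 0 of the 8 were at 0 in all samples of any group. The 6 neural stem or precursor markers summed to between 688 and 843 FPKM in ASTs, between 771 and 850 FPKM in A-iSCs, between 181 and 217 FPKM in P56-NPCs and between 726 and 843 FPKM in P0-NPCs, so the group named for adult precursor cells held the least of them, whereas the 4 oligodendrocyte markers summed to between 7851 and 8963 FPKM in P56-NPCs and to at most 9.03 FPKM in every sample of the other groups. Mitochondrial genes took 17.05% ± 0.549 of the fragments in P56-NPCs and 3.60% ± 0.955 in ASTs (SD, n = 3).

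Across the 4 groups, ASTs held the highest mean level of 31 of the 36 genes (86.1%), compared with 30.7% of the 16568 genes with a mean of at least 1 FPKM in any group. The other 5, Mcm7, Gins1, Rfc3, Pola2 and Pold1, were highest in P0-NPCs. P56-NPCs held the lowest mean of 32 genes (88.9%, against 27.1% of all genes). Mcm4 and Pold1 were lowest in A-iSCs, and Gins4 and Rfc1 were lowest in P0-NPCs. The descending order of ASTs, P0-NPCs, A-iSCs and P56-NPCs was found in 25 members (69.4%, against 6.83% of all genes). Summed over the 36 genes, expression was 525 ± 20.8 FPKM in ASTs, 306 ± 18 FPKM in P0-NPCs, 211 ± 1.17 FPKM in A-iSCs and 151 ± 1.42 FPKM in P56-NPCs (mean ± SD, n = 3 samples per group, as for every level below). The samples of the 4 groups did not overlap in this sum. Without Rrm2, the most abundant member in ASTs, the sums were 399 ± 21.7, 289 ± 17, 203 ± 1.56 and 147 ± 1.73 FPKM in the same order of groups. In cells sequenced in bulk, fewer cells expressing a gene and less RNA of it per cell cannot be told apart, and this holds for every difference below.

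**Figure D1:**
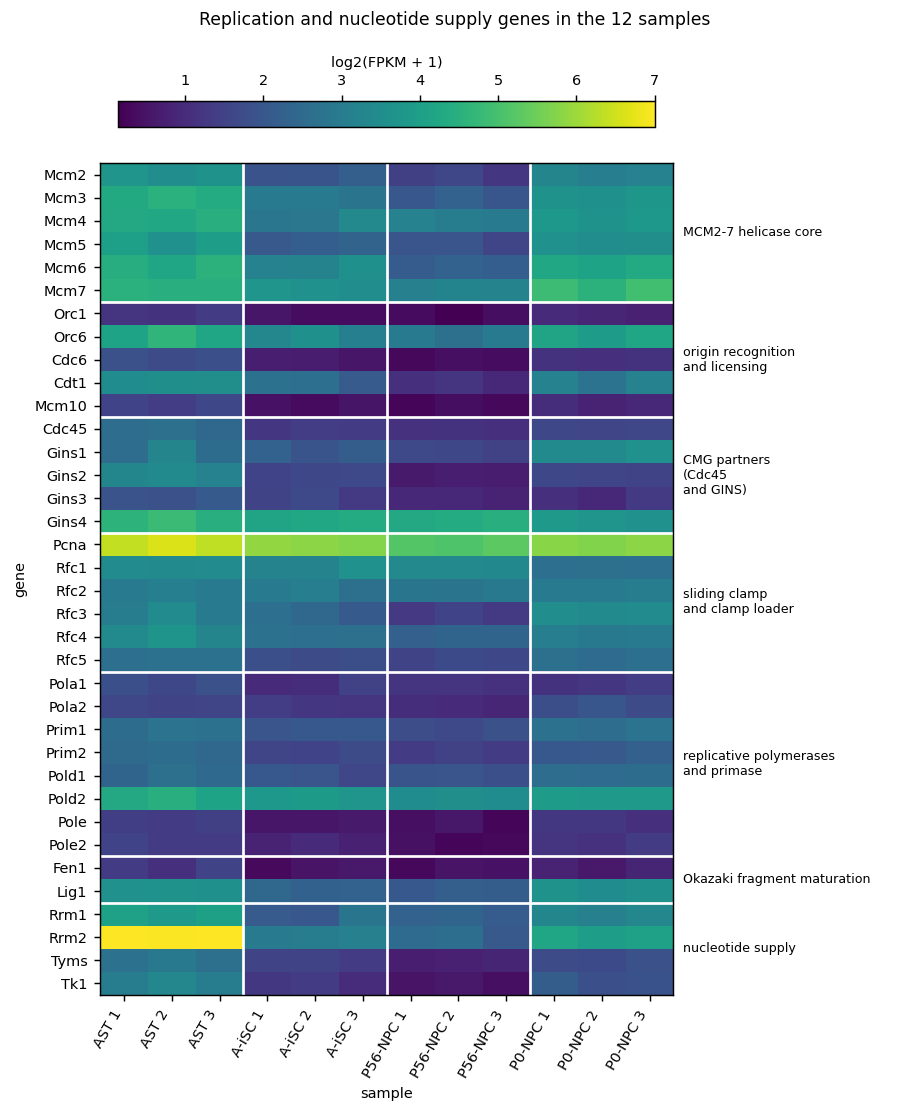
Expression of the 36 genes, one per line and grouped by role, in the 12 samples as log2(FPKM + 1), shown by colour from low (dark) to high (yellow). The 3 AST columns are the brightest for most genes, the P56-NPC columns are the darkest, and Rrm2 is the brightest gene in ASTs and Pcna in the other groups.

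To see whether the members share sequence at their starts, the RefSeq promoter windows (build GRCm38.p6, 250 bases before to 50 bases after the start) were searched on both strands for TTTNNCGC, each N being C or G, which is a common form of the E2F site. Windows were found for 29 of the 36 members, and none was held for Mcm4, Gins1, Gins2, Gins4, Rfc2, Prim2 and Pole. A gene was counted when any of its windows held a match. The letters were present for 13 of the 29 members (44.8%) and for 704 of 27025 genes (2.6%). These 27025 were all genes with a window, expressed or not, and were not matched to the members in base content. The letters CCAAT, the motif of the factor NF-Y, were present for 18 members (62.1%, against 41.1% of all genes), and TTTGAA or TTCGAA, the letters of the cell cycle homology region, for 7 members (24.1%, against 21.7%). The 170 bases before the RefSeq start of Mcm5, Mcm6 and Pola1 are shown because each carries the E2F-type letters, and those of Rrm2 because it changed most among the members and carries no match in this window. Capitals mark the matches, each sequence is read 5′ to 3′ on the gene's strand, and where 2 matches on opposite strands overlap the capitals cover both. The RefSeq starts differ by some bases from the gene positions in the deposited table.
Mcm5, chr8:75109339-75109508, plus strand: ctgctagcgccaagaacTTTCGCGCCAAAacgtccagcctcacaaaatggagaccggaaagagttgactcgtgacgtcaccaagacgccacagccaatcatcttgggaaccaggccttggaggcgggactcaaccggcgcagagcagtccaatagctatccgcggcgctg
Mcm6, chr1:128359706-128359875, minus strand: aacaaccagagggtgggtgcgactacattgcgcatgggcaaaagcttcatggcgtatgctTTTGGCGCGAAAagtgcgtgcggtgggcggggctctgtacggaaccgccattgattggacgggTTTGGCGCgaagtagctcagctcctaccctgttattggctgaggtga
Pola1, chrX:93632156-93632325, minus strand: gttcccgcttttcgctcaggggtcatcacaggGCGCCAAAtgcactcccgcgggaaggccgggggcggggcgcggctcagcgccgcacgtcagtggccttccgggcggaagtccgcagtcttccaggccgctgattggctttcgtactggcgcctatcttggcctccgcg
Rrm2, chr12:24708084-24708253, plus strand: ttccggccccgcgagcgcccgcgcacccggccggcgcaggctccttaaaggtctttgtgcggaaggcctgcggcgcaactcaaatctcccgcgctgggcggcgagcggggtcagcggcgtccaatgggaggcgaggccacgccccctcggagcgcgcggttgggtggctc
The matches began 153 and 149 bases before the start in Mcm5, 110, 106 and 47 bases before it in Mcm6, and 138 bases before it in Pola1. Between A-iSCs and ASTs, the median log2 fold change was -0.86 for the 13 members with the E2F-type letters and -0.95 for the 16 without, given here without a test.

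The comparison of A-iSCs with ASTs asked which of these genes changed over 5 days in spheres. Nearly the whole set was lower in A-iSCs. Rrm2 was lower by 17.2-fold, Tk1 by 5.89-fold, Gins2 by 4.37-fold and Mcm5 by 3.85-fold, whereas Pcna was lower by 1.58-fold and the clamp loader gene Rfc1 measured 9.82 ± 0.291 FPKM before and 9.29 ± 1.72 FPKM after the sphere culture. Differences were tested with limma on log2(FPKM + 1) over 14087 genes with a mean of at least 1 FPKM in either group, and a gene was called when its p-value was under 0.05 after Benjamini-Hochberg adjustment. Of the 36 members, all tested, 33 were lower in A-iSCs and 0 were higher, whereas 29.6% of all tested genes were lower and 25.2% were higher. The median log2 fold change was -0.89 for the members and -0.06 for all tested genes, and 15 members fell by more than 1 on the log2 scale (11% of all tested genes did). Gins4, Rfc1 and Rfc2 did not pass the test. The 3 samples of each group did not overlap, with A-iSCs lower, for 34 members, against 33.9% of all tested genes, and for 0 with A-iSCs higher (28.8%). Orc1, Cdc6, Mcm10, Pole, Pole2 and Fen1 passed the filter only through their level in ASTs, and with no filter on low values 29 of the 36 were lower (14.1% of 30439 genes) and 0 were higher (14.2%). Leaving out each sample in turn kept 29 of the 33 calls in every case. Gins1 lost its call without A-iSC replicate 2, Gins3 without AST replicates 1 or 3 or A-iSC replicate 1, Pola1 without AST replicates 1 or 3 or A-iSC replicates 1 or 2, and Pola2 without any 1 sample other than A-iSC replicate 1. Without A-iSC replicate 3 the count was 33, and without AST replicate 2 it was 32.

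**Figure D2:**
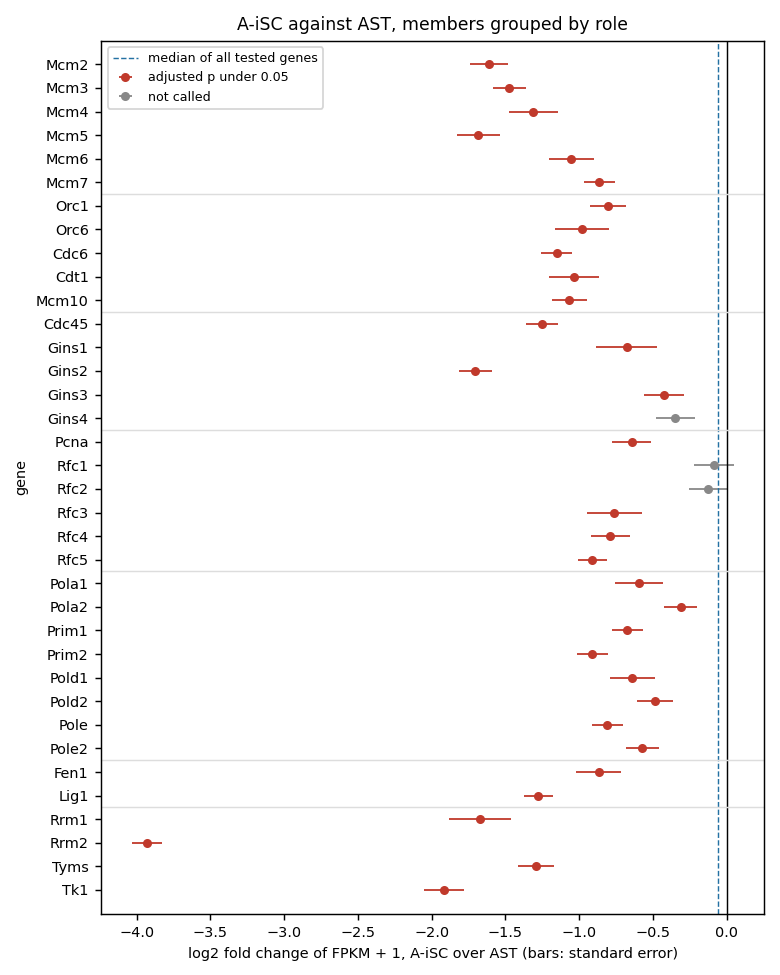
Log2 fold change of FPKM + 1 between A-iSCs and ASTs for each of the 36 genes, with bars of 1 standard error, grouped by role from the helicase core at the top to nucleotide supply at the bottom; red points passed the test and grey points did not. The points lie left of the median of all tested genes (dashed line, -0.06), from -3.93 for Rrm2 to -0.08 for Rfc1, and under scaling by total fragments the grey points of Rfc1 and Rfc2 move to 0.11 and 0.06.

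All 6 genes of the helicase core were lower in A-iSCs than in ASTs, with log2 fold changes from -1.68 to -0.86 and a median of -1.39. Mcm5 (ENSMUSG00000005410, chr8:75109569-75128439 on GRCm38), whose promoter is shown above, fell the most. It measured 15.1, 11.2 and 14.98 FPKM in the 3 ASTs, 3.18, 3.55 and 3.99 in the A-iSCs, 2.90, 2.87 and 1.99 in the P56-NPCs and 11.3, 10.3 and 10.7 in the P0-NPCs. Every AST sample lay above every A-iSC sample, and the mean was 3.85-fold lower in A-iSCs (log2 fold change -1.68 ± 0.15 SE, adjusted p = 8.26e-05). Mcm2, a subunit that also binds histones, measured 12.3, 10.5 and 11.6 FPKM in ASTs, 2.76, 2.81 and 3.71 in A-iSCs, 1.73, 2.03 and 1.36 in P56-NPCs and 8.58, 7.39 and 8.19 in P0-NPCs. The groups of Mcm2 did not overlap, and the log2 fold change of A-iSCs over ASTs was -1.61 ± 0.13 (SE, adjusted p = 5.78e-05). Mcm6 (chr1:128331590-128359664), with 3 matches to the E2F-type letters in its window, measured 20.5, 17.3 and 22.3 FPKM in ASTs, 8.16, 8.35 and 11 in A-iSCs, 3.38, 3.90 and 3.59 in P56-NPCs and 18.2, 16.6 and 19.2 in P0-NPCs. The P0-NPC samples of Mcm6 overlapped the AST samples through AST replicate 2 alone, the A-iSC samples lay between both and the P56-NPC samples, and A-iSCs were 2.19-fold below ASTs (-1.05 ± 0.15 SE, adjusted p = 0.000984). Mcm7 changed least in this role. Its values were 21.95, 20.97 and 21.2 FPKM in ASTs, 12.3, 11.3 and 10.4 in A-iSCs, 7.78, 8.47 and 8.30 in P56-NPCs and 27.6, 22.4 and 29.7 in P0-NPCs. The P0-NPC samples were the highest, and A-iSCs lay below ASTs by 1.89-fold (-0.86 ± 0.11 SE, adjusted p = 0.000473). Exons of other genes cover 12.58% of the exon bases of Mcm7, and the counting was not stated to use strand. Mcm3 fell from 20.2 ± 1.54 to 6.64 ± 0.602 FPKM and Mcm4 from 19.2 ± 1.59 to 7.26 ± 1.80 FPKM. A-iSC replicate 3 held 9.34 FPKM of Mcm4 against 6.15 and 6.29 in the other A-iSCs, and without it the log2 fold change was -1.48 in place of -1.31.

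The ring holds its subunits in equal numbers, and their levels were most even in ASTs. The highest of the 6 FPKM values divided by the lowest was 1.79, 2.10 and 1.92 in ASTs, 4.46, 4.03 and 2.96 in A-iSCs, 4.66, 4.17 and 6.10 in P56-NPCs and 3.22, 3.04 and 3.62 in P0-NPCs. All AST samples lay below all others (exact two-sided permutation p = 0.1 against each other group, the smallest that 3 samples against 3 allow). A-iSCs overlapped P56-NPCs (exact p = 0.2) and P0-NPCs (exact p = 0.4) in this measure. The overlap with P0-NPCs rested on A-iSC replicate 3, as the other 2 A-iSCs lay above every P0-NPC. This measure depends on the gene lengths used, all exon bases, which ran from 3589 for Mcm4 to 6956 for Mcm2.

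**Figure D3:**
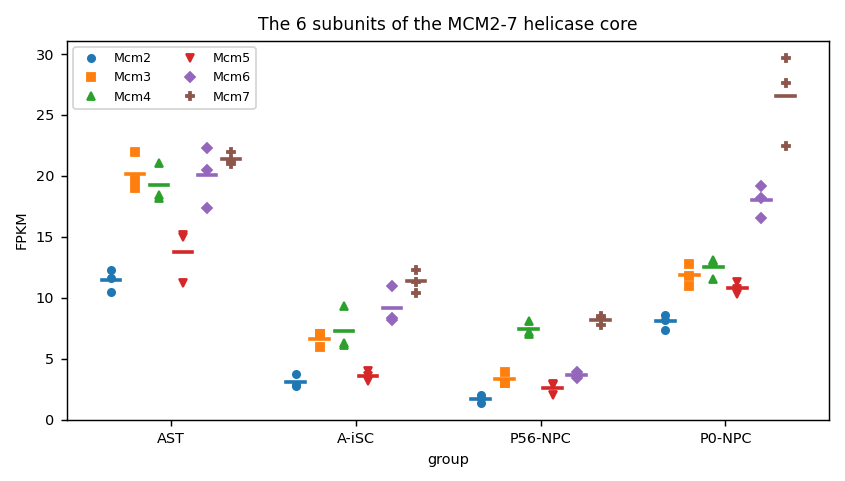
FPKM of the 6 helicase core subunits in each sample (points) with the group mean (line), by group. In ASTs the means lie between 11.4 (Mcm2) and 21.4 (Mcm7), in A-iSCs between 3.09 and 11.3, in P56-NPCs between 1.71 and 8.19, and in P0-NPCs between 8.05 and 26.6.

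All 5 genes of origin recognition and licensing were lower in A-iSCs, with a median log2 fold change of -1.03. Cdc6 (ENSMUSG00000017499, chr11:98907801-98923940), the ATPase that loads the helicase together with Cdt1, measured 2.61, 2.37 and 2.55 FPKM in ASTs, 0.655, 0.603 and 0.485 in A-iSCs, 0.231, 0.334 and 0.302 in P56-NPCs and 1.24, 1.14 and 1.22 in P0-NPCs. Every AST sample was above every sample of the other groups, and the log2 fold change of A-iSCs over ASTs was -1.15 ± 0.11 (SE, adjusted p = 0.000113). Its mean was 4.32-fold lower in A-iSCs, more than the log2 scale shows, because the 1 added to each FPKM value shrinks the change of genes near 1 FPKM. Orc1, the ATPase subunit of the origin recognition complex, had a log2 fold change of -0.80 ± 0.12 (SE, adjusted p = 0.00125), the one nearest 0 in the role on this scale. Its mean was 3.85-fold lower, more than for Cdt1 (2.23-fold) and Orc6 (2.09-fold). It measured 1.30, 1.20 and 1.58 FPKM in ASTs, 0.471, 0.290 and 0.300 in A-iSCs, 0.265, 0.107 and 0.332 in P56-NPCs and 0.955, 0.849 and 0.720 in P0-NPCs, from 24 to 33 fragments in each A-iSC sample. A-iSC and P56-NPC samples of Orc1 overlapped, and both lay below the P0-NPCs and ASTs. Orc6, the smallest subunit of that complex, fell from 19.2 ± 3.95 to 9.18 ± 1.70 FPKM. Cdt1 fell from 10.6 ± 0.388 to 4.74 ± 1.23 FPKM, and Mcm10, which helps to switch the loaded helicase on, from 1.87 ± 0.233 to 0.368 ± 0.0930 FPKM, a 5.06-fold difference.

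Of the 5 partners that turn the ring into the CMG helicase, 4 were lower in A-iSCs (29.6% of all tested genes were) and Gins4 did not pass the test. With no filter on low values 2 were lower, Cdc45 and Gins2, with adjusted p = 0.0648 for Gins1 and 0.0699 for Gins3. Gins2 (ENSMUSG00000031821, chr8:120578633-120589304), a subunit of the GINS complex, fell the most. It measured 8.85, 9.87 and 8.06 FPKM in ASTs, 1.88, 2.10 and 2.15 in A-iSCs, 0.548, 0.654 and 0.593 in P56-NPCs and 2.09, 2.01 and 1.92 in P0-NPCs. A-iSCs and P0-NPCs overlapped, between the higher ASTs and the lower P56-NPCs, and A-iSCs were 4.37-fold below ASTs (-1.70 ± 0.11 SE, adjusted p = 2.48e-05). Exons of Gse1 on the opposite strand cover 67.32% of the exon bases of Gins2, so its reads and those of Gse1 cannot be told apart where strand was not used. Gins4, another subunit, measured 22.8, 27.2 and 21.1 FPKM in ASTs, 16.9, 18.3 and 19.8 in A-iSCs, 18.4, 19.6 and 21.02 in P56-NPCs and 13.5, 12.3 and 11.4 in P0-NPCs. Its A-iSC samples were all below its AST samples, with a log2 fold change of -0.35 ± 0.13 (SE, adjusted p = 0.0579), and without A-iSC replicate 3 the adjusted p was 0.0338. Cdc45, the third component of the CMG helicase, fell from 4.99 ± 0.402 to 1.51 ± 0.135 FPKM. Gins1 stood at 6.18 ± 2.06 FPKM in ASTs and 3.40 ± 0.566 in A-iSCs, and Gins3 at 2.86 ± 0.322 and 1.88 ± 0.350 FPKM. AST replicate 2 was the highest AST for Gins1, at 8.56 FPKM, and without it the log2 fold change was -0.45 in place of -0.68.

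Pcna and 3 of the 5 clamp loader genes were lower in A-iSCs. Pcna (ENSMUSG00000027342, chr2:132249162-132253314), which encodes the sliding clamp that holds polymerases on DNA, measured 81.5, 99.9 and 80.9 FPKM in ASTs, 58.5, 55.8 and 51.8 in A-iSCs, 35.3, 33.8 and 37.6 in P56-NPCs and 53.9, 51.3 and 55.3 in P0-NPCs. ASTs were the highest and P56-NPCs the lowest without overlap, while A-iSCs and P0-NPCs overlapped through A-iSC replicate 3. The mean was 1.58-fold lower in A-iSCs than in ASTs (-0.64 ± 0.13 SE, adjusted p = 0.00548). By RT-PCR the study reported the other direction, PCNA rising with time in the spheres. A processed copy, Pcna-ps2, was listed at between 1.197 and 6.504 FPKM, and reads shared between the copies could have been assigned to either. Rfc5 fell the most among the loader genes, from 5.25, 5.61 and 5.47 FPKM in ASTs to 2.52, 2.31 and 2.45 in A-iSCs, with 1.94, 2.22 and 2.11 in P56-NPCs and 5.41, 4.84 and 5.32 in P0-NPCs. P0-NPC samples of Rfc5 overlapped the ASTs, and A-iSCs lay apart below both (-0.91 ± 0.10 SE, adjusted p = 0.000226). Rfc1, the large subunit of the loader, measured 10.01, 9.48 and 9.97 FPKM in ASTs, 8.30, 8.30 and 11.3 in A-iSCs, 9.32, 9.36 and 9.27 in P56-NPCs and 5.30, 5.37 and 5.24 in P0-NPCs. A-iSC replicate 3 exceeded every AST sample and the other 2 A-iSCs lay below them, so the groups overlapped (-0.08 ± 0.14 SE, adjusted p = 0.624). Without that sample the log2 fold change of Rfc1 was -0.22 (adjusted p = 0.06). Rfc2 stood at 7.19 ± 0.334 FPKM in ASTs and 6.56 ± 1.04 in A-iSCs and also overlapped. Rfc3 fell from 8.02 ± 1.63 to 4.33 ± 1.01 FPKM and Rfc4 from 10.1 ± 1.71 to 5.39 ± 0.0743 FPKM. Exons of opposite-strand genes cover 15.1% of the exon bases of Rfc2 (Lat2), 12.65% of Rfc4 (Eif4a2) and 10.69% of Rfc5 (Wsb2). Highest over lowest among the 5 loader genes was 1.96 ± 0.164 in ASTs, 1.95 ± 0.0399 in P0-NPCs, 3.83 ± 0.680 in A-iSCs and 5.89 ± 0.800 in P56-NPCs.

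All 8 polymerase and primase genes were lower in A-iSCs, by less than the helicase genes in the median (-0.62). With no filter on low values 6 were, as Pola1 (adjusted p = 0.0517) and Pola2 (adjusted p = 0.105) no longer passed. Prim2 (ENSMUSG00000026134, chr1:33453810-33669795), the large primase subunit, had the lowest log2 fold change. Its values were 4.71, 4.92 and 4.49 FPKM in ASTs, 1.99, 1.86 and 2.28 in A-iSCs, 1.55, 1.83 and 1.54 in P56-NPCs and 3.13, 3.20 and 3.78 in P0-NPCs. AST samples were the highest, P0-NPCs came next, and neither overlapped the A-iSCs (-0.91 ± 0.11 SE, adjusted p = 0.000357). Pola2, the accessory subunit of polymerase alpha, changed least, with 2.05, 1.92 and 2.0 FPKM in ASTs, 1.62, 1.37 and 1.25 in A-iSCs, 1.06, 0.984 and 0.842 in P56-NPCs and 2.46, 2.95 and 2.31 in P0-NPCs. Its groups did not overlap and P0-NPCs were the highest (-0.31 ± 0.11 SE for A-iSCs over ASTs, adjusted p = 0.0444). Pola1, the catalytic subunit of polymerase alpha, fell from 2.41 ± 0.244 to 1.29 ± 0.481 FPKM. A-iSC replicate 3, at 1.84 FPKM, was far above the other 2 A-iSCs, and without it the log2 fold change of Pola1 was -0.76 in place of -0.59. Prim1, the catalytic primase subunit, fell from 5.46 ± 0.473 to 3.04 ± 0.116 FPKM. For polymerase delta, which extends Okazaki fragments, the catalytic Pold1 fell from 4.72 ± 0.665 to 2.68 ± 0.546 FPKM and the accessory Pold2 from 18.7 ± 2.27 to 13.1 ± 0.811 FPKM. For polymerase epsilon, which copies the leading strand, the catalytic Pole fell from 1.64 ± 0.117 to 0.508 ± 0.0575 FPKM, 3.23-fold, and Pole2 from 1.68 ± 0.158 to 0.806 ± 0.113 FPKM.

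Both genes of Okazaki fragment maturation were lower. Lig1 (ENSMUSG00000056394, chr7:13277283-13311433), the ligase that joins the fragments, measured 11.4, 11.6 and 11.1 FPKM in ASTs, 4.43, 3.89 and 3.98 in A-iSCs, 3.12, 3.65 and 3.54 in P56-NPCs and 11.7, 10.2 and 11.01 in P0-NPCs. ASTs and P0-NPCs overlapped at a high level, and A-iSCs were 2.76-fold below ASTs (-1.28 ± 0.10 SE, adjusted p = 5.09e-05). Fen1, the nuclease that trims the flaps left by primers, measured 1.60, 1.16 and 1.93 FPKM in ASTs, 0.246, 0.417 and 0.539 in A-iSCs, 0.238, 0.412 and 0.401 in P56-NPCs and 0.758, 0.539 and 0.809 in P0-NPCs. AST samples were the highest, and A-iSCs, with 12 to 35 fragments each, overlapped P56-NPCs (-0.87 ± 0.15 SE for A-iSCs over ASTs, adjusted p = 0.00258). Exons of Gm10143 and Tmem258, both on the opposite strand, together cover 84.19% of the exon bases of Fen1, so its level is uncertain.

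The 4 nucleotide supply genes fell further than any other role, with a median log2 fold change of -1.79. Rrm2 (ENSMUSG00000020649, chr12:24708241-24714146) encodes the small subunit of ribonucleotide reductase, which is made in S phase and degraded after it. It measured 128, 125 and 125 FPKM in ASTs, 6.93, 7.33 and 7.73 in A-iSCs, 4.84, 5.13 and 3.15 in P56-NPCs and 17.6, 14.97 and 15.9 in P0-NPCs. The 4 groups did not overlap, with ASTs the highest, then P0-NPCs, A-iSCs and P56-NPCs. The mean was 17.2-fold lower in A-iSCs (log2 fold change -3.93 ± 0.10 SE, adjusted p = 3.09e-06), 28.8-fold lower in P56-NPCs and 7.80-fold lower in P0-NPCs than in ASTs. Rrm2 alone made up 24.02 ± 1.11% of the summed FPKM of the 36 members in ASTs and 3.48 ± 0.208% in A-iSCs. Tyms, thymidylate synthase, changed least in the role. It measured 5.60, 6.57 and 5.41 FPKM in ASTs, 1.95, 1.92 and 1.53 in A-iSCs, 0.662, 0.706 and 0.798 in P56-NPCs and 2.37, 2.23 and 2.58 in P0-NPCs. Here too the 4 groups did not overlap, with A-iSCs just below P0-NPCs (-1.29 ± 0.12 SE for A-iSCs over ASTs, adjusted p = 0.000119). Tk1, the cytosolic thymidine kinase of the salvage route, fell from 7.73 ± 1.03 to 1.31 ± 0.254 FPKM, 5.89-fold. Rrm1, the large reductase subunit, fell from 14.9 ± 1.23 to 4.14 ± 1.61 FPKM. Its A-iSC replicate 3 held 5.99 FPKM against 3.37 and 3.05 in the other A-iSCs, and without it the log2 fold change was -1.92 in place of -1.67.

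Relative to Rrm1, Rrm2 was highest in ASTs. The gene lengths used, all exon bases, were 2771 for Rrm2 and 11012 for Rrm1, so the size of the ratio depends on them. FPKM of Rrm2 divided by that of Rrm1, both per kilobase of gene, was 8.12, 9.24 and 8.06 in ASTs, 2.06, 2.40 and 1.29 in A-iSCs, 1.24, 1.26 and 0.932 in P56-NPCs and 1.99, 1.91 and 1.76 in P0-NPCs. ASTs lay above all other samples, and P56-NPCs lay below all others, each with an exact two-sided permutation p of 0.1 against every other group, the smallest possible. A-iSCs and P0-NPCs overlapped (exact p = 1), but through A-iSC replicate 3 alone, since the other 2 A-iSCs lay above every P0-NPC. Rrm2b, the alternative small subunit used outside S phase, stood at 3.33 ± 0.274 FPKM in ASTs, 2.50 ± 0.828 in A-iSCs, 5.66 ± 0.257 in P56-NPCs and 0.854 ± 0.0609 in P0-NPCs. It was named after its values were seen. Rrm2b over Rrm2 was 0.0265 ± 0.00247 in ASTs, 0.339 ± 0.0959 in A-iSCs, 1.36 ± 0.382 in P56-NPCs and 0.0532 ± 0.00735 in P0-NPCs.

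**Figure D4:**
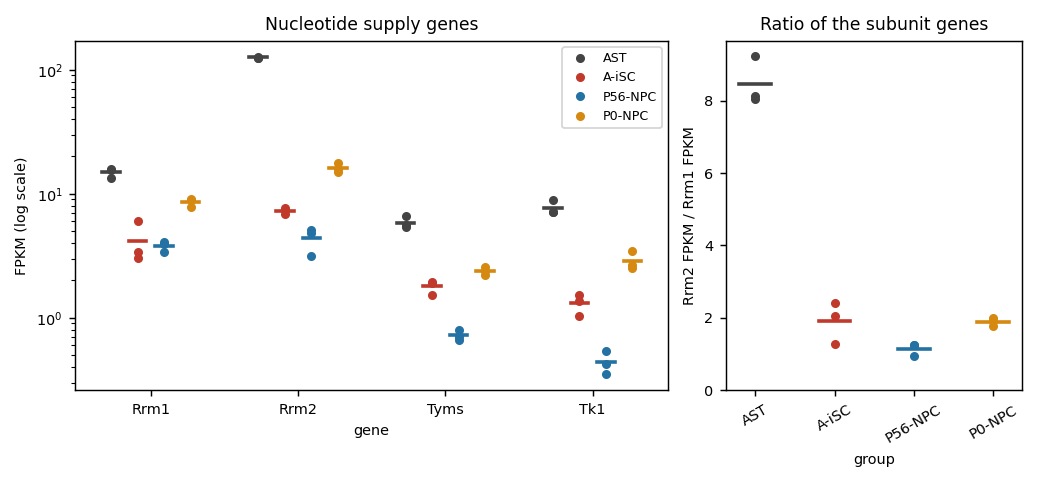
Left, FPKM on a log axis of the 4 nucleotide supply genes in each sample (points) with the group mean (line). Right, the ratio of Rrm2 to Rrm1 FPKM per sample, which lies above 8 in every AST and below 2.5 in every other sample.

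In the comparisons with the cells of the adult subependymal zone, the question was where the spheres stood between ASTs and the NPC groups. In P56-NPCs 34 of the 36 members were lower than in ASTs and 0 were higher, against 39.8% and 39.1% of the 15146 genes tested, with a median log2 fold change of -1.23 for members and -0.03 for all. Gins4 and Rfc1 did not pass, and Rfc2 passed narrowly (-0.18, adjusted p = 0.0472) and lost its call when any sample but P56-NPC replicate 3 was left out. The 6 genes under the filter in A-iSCs and also Gins2, Gins3, Pola2, Tyms and Tk1 passed it only through ASTs, and with no filter 33 of 36 were lower (22% of 30545 genes) and 0 were higher (26.2%), and 25 were lower by more than 1 on the log2 scale (18.2% of tested genes). The samples did not overlap for all 36 members, with P56-NPCs lower, against 41.3% of tested genes lower and 40.6% higher without overlap. After Rrm2, the lowest log2 fold changes were those of Gins2 (-2.63 ± 0.09 SE, adjusted p = 2.70e-07), Tk1 (-2.60 ± 0.11 SE, adjusted p = 6.36e-07) and Cdt1 (-2.47 ± 0.09 SE, adjusted p = 4.03e-07), whose means were 14.9-, 17.7- and 9.66-fold lower. By role the medians on the log2(FPKM + 1) scale ran from -0.86 for the polymerases and primase to -2.11 for the helicase core and -2.30 for nucleotide supply. That scale shrinks the change of low licensing genes such as Cdc6 and Mcm10, whose means were 8.69- and 7.48-fold lower. Without AST replicate 2 the count was 33. Both comparisons used the same AST samples.

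A-iSCs compared directly with P56-NPCs were higher for 17 of the 30 members tested and lower for 0, against 30.1% and 30.9% of 15044 tested genes. Orc1, Cdc6, Mcm10, Pole, Pole2 and Fen1 were under the filter in both groups, and Gins2, Gins3, Pola2, Tyms and Tk1 passed it only through A-iSCs. With no filter 17 of 36 were higher (15% of 31328 genes) and 0 lower (18.1%). Cdt1, which stood at 4.74 ± 1.23 FPKM in A-iSCs and 1.09 ± 0.204 in P56-NPCs, differed most (1.44 ± 0.18 SE, adjusted p = 0.000409). On the log2(FPKM + 1) scale Mcm6 followed with 9.17 ± 1.59 against 3.62 ± 0.260 FPKM (1.13 ± 0.13 SE, adjusted p = 0.000268), then Rfc3 with 4.33 ± 1.01 against 1.60 ± 0.241 FPKM (1.02 ± 0.16 SE, adjusted p = 0.00126). By the ratio of mean FPKM the order among the tested members after Cdt1 (4.34-fold) was Gins2 (3.42-fold), Tk1 (3.003-fold), Rfc3 (2.70-fold) and Mcm6 (2.53-fold). Pole2, under the filter, stood at 0.806 ± 0.113 against 0.255 ± 0.0956 FPKM, a ratio between those of Gins2 and Tk1. Pcna, Mcm2, Rrm2 and Tyms were also higher, with log2 fold changes of 0.62, 0.60, 0.65 and 0.70. Samples of the 2 groups did not overlap, with A-iSCs higher, for 23 of the 30 tested members (34.7% of all tested genes), and for 0 with A-iSCs lower (33.8%). The other 7, Mcm4, Gins4, Rfc1, Rfc2, Pola1, Pold1 and Rrm1, overlapped through A-iSC replicate 3 alone. Without it A-iSCs lay wholly below P56-NPCs for 5 of them, Mcm4, Gins4, Rfc1, Pola1 and Rrm1, and wholly above for Rfc2 and Pold1. A difference of more than 1 on the log2 scale was found for 3 members (9.79% of tested genes). The count rested on how samples were scaled: 28 of the 30 were higher when scaled by total fragments, under which the median of all genes moved from 0.03 to 0.49. Leaving out samples in turn gave 13 to 19 calls. Without A-iSC replicate 3 there were 19, of which 18 were higher and Mcm4 was lower, with a log2 fold change of -0.22 (adjusted p = 0.0394). Prim1 was then among the higher genes (adjusted p = 0.0458). Orc6, Rfc4, Pola2 and Pold2 lost their call in at least 1 such fit.

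P0-NPCs came next below ASTs in the summed level of these genes. Compared with ASTs, 23 of the 36 members were lower (40.9% of the 15010 genes tested) and 3 were higher (38.1%), with a median log2 fold change of -0.46 against -0.07 for all. Under scaling by total fragments the split was 16 lower and 8 higher. The higher genes were Gins1, from 6.18 ± 2.06 FPKM in ASTs to 10.2 ± 0.938 in P0-NPCs (0.67 ± 0.18 SE, adjusted p = 0.0103), Mcm7 (adjusted p = 0.0415) and Pola2 (adjusted p = 0.04). Mcm7 kept its call only when P0-NPC replicate 2 was left out and Pola2 only when P0-NPC replicate 3 was left out, whereas Gins1 kept its call in each of the 6 fits. With no filter 22 were lower (21.1% of 32717 genes) and Gins1 alone was higher (26.3%). Samples did not overlap for 24 members lower (42.1% of tested genes) and 3 higher (39.3%), and 4 were lower by more than 1 on the log2 scale (18.7%). Rrm2 was lower by the most (-2.89 ± 0.09 SE, adjusted p = 9.29e-08), followed by Gins2 (-1.72 ± 0.09 SE, adjusted p = 1.19e-06) and Tk1 (-1.17 ± 0.13 SE, adjusted p = 5.73e-05). The 10 members that did not pass included Mcm6, Lig1, Prim1 and Rfc5, with log2 fold changes of -0.14, -0.05, -0.00281 and -0.06. By role, all 4 nucleotide supply genes, 4 of the 5 licensing genes, 4 of the 5 helicase partners and 4 of the 6 helicase core genes were lower, as were 3 of the 6 clamp and loader genes, 3 of the 8 polymerase and primase genes and Fen1. Orc1, Mcm10 and Fen1 passed the filter only through ASTs. Without AST replicate 2, 24 were lower and 2 higher: Mcm6 was then called lower (-0.24, adjusted p = 0.0307) and Rfc3 higher (0.44 in place of 0.30, adjusted p = 0.000719). Mcm5 was lower (-0.32, adjusted p = 0.0429) but overlapped between the groups through AST replicate 2 and kept its call only in the fit without AST replicate 2, and Orc1 lost its call without AST replicate 3. Mcm6, Rfc3 and Pold1 likewise overlapped through AST replicate 2 alone, and without it P0-NPCs lay wholly below ASTs for Mcm5 and Mcm6 and wholly above for Rfc3 and Pold1.

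A-iSCs were lower than P0-NPCs for 24 of 33 members tested and higher for Gins3, Gins4 and Rfc1, against 33.6% lower and 31.5% higher among 15170 genes. With no filter the counts were 23 lower and 2 higher of 36 (20.2% and 15.7% of 33202 genes). Samples did not overlap for 25 of the 33 tested members lower (36.3% of all tested genes) and 3 higher (34.4%), and 7 were lower by more than 1 on the log2 scale (15.7%). All 6 helicase core genes were lower, from -1.37 for Mcm5 to -0.73 for Mcm4. Gins1 (-1.35 ± 0.13 SE, adjusted p = 6.63e-05) and Lig1 (-1.23 ± 0.11 SE, adjusted p = 3.44e-05) were among the largest differences, and Rrm2 was 2.20-fold lower (-1.04 ± 0.11 SE, adjusted p = 8.72e-05). Rfc1 was 1.75-fold higher in A-iSCs (adjusted p = 0.00244) and Gins4 1.48-fold higher (adjusted p = 0.00413). For Pcna the difference was 0.05 ± 0.11 (SE, adjusted p = 0.715) and for Gins2 0.02 ± 0.10 (SE, adjusted p = 0.903), and both overlapped. Cdt1, Cdc45, Gins3, Rfc4 and Pole2 lost their call in at least 1 fit with a sample left out, Cdt1 among them without A-iSC replicate 3 (adjusted p = 0.0556). Without that sample 23 were lower and 3 higher, and the samples of Pcna and Pola1, and of Fen1 among those not tested, no longer overlapped, with A-iSCs higher for Pcna and lower for Pola1 and Fen1. Cdc6, Pole and Pole2 passed the filter only through P0-NPCs, and Orc1, Mcm10 and Fen1 were not tested.

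Between the NPC groups, 29 of 33 members tested were higher in P0-NPCs and 2 were lower, against 39% and 39.7% of 15394 genes, and the median log2 fold change was 0.91 for members and -0.01 for all. With no filter 31 were higher (22.9% of 32889 genes) and 2 lower (21.7%) of 36, and 13 were higher by more than 1 on the log2 scale (13.2% of tested genes). On the log2(FPKM + 1) scale Rfc3 differed the most, from 1.60 ± 0.241 FPKM in P56-NPCs to 10.01 ± 0.397 in P0-NPCs (2.08 ± 0.08 SE, adjusted p = 4.51e-07), then Mcm6 (2.04 ± 0.08 SE, adjusted p = 3.42e-07) and Cdt1 (1.99 ± 0.14 SE, adjusted p = 7.06e-06). By the ratio of mean FPKM, Cdt1 (6.72-fold) and Tk1 (6.60-fold) were above Rfc3 (6.24-fold). Gins4 was 1.59-fold and Rfc1 1.76-fold lower in P0-NPCs. Gins3 and Pola1 did not pass, and Rfc2 lost its call when any sample but P56-NPC replicate 3 was left out. Cdc6, Gins2, Gins3, Pola2, Pole, Pole2, Tyms and Tk1 passed the filter only through P0-NPCs. The samples did not overlap for 30 of the 33 tested members higher (40.2% of all tested genes) and 2 lower (41%).

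**Figure D5:**
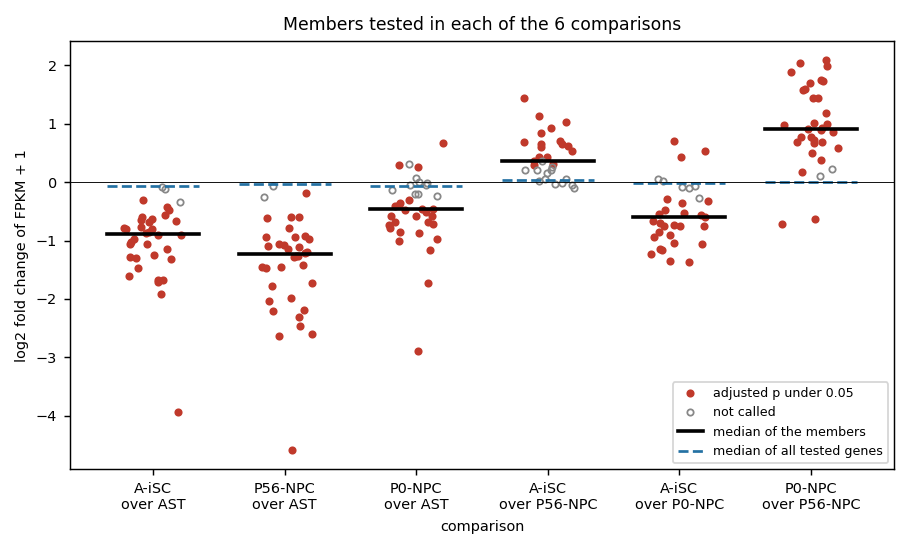
Log2 fold change of FPKM + 1 of each tested member (points, spread sideways at random) in the 6 comparisons, filled red where the adjusted p was under 0.05 and open grey where it was not, with the median of the members (black line) and of all tested genes (dashed line). The medians of the members lie at -0.89, -1.23, -0.46, 0.36, -0.61 and 0.91 for A-iSCs over ASTs, P56-NPCs over ASTs, P0-NPCs over ASTs, A-iSCs over P56-NPCs, A-iSCs over P0-NPCs and P0-NPCs over P56-NPCs, and those of all genes between -0.07 and 0.03.

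Other genes of the same pathways were read from lists beside the members, against 29.6% of all tested genes lower and 25.2% higher between A-iSCs and ASTs. The lowest and highest gene of each list are those on the log2(FPKM + 1) scale. Of 13 further origin and licensing genes, 11 were tested between A-iSCs and ASTs, 7 were lower and 1 higher. The lowest was Dbf4, the activator of the origin-firing kinase Cdc7 (-1.47, adjusted p = 5.32e-05), and the highest was Orc3, another subunit of the origin recognition complex (0.42, adjusted p = 0.0421). Among 20 further fork genes, 17 were tested, 9 were lower and 2 higher, from Rpa1, the large subunit of the protein that coats single-stranded DNA (-2.01, adjusted p = 0.00129), to Pold3, an accessory subunit of polymerase delta (0.58, adjusted p = 0.00299). The 9 further nucleotide genes comprised 5 lower and 2 higher. Dut, which removes dUTP, was the lowest (-1.43, adjusted p = 0.000362) and Cda, cytidine deaminase, the highest (1.16, adjusted p = 0.00547). Of 8 genes of chromatin assembly and maintenance at the fork, 6 were lower and 0 higher, from the histone chaperone Asf1b (-2.25, adjusted p = 9.06e-06) to its paralog Asf1a, which did not pass (-0.19, adjusted p = 0.439).

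Of 13 E2F factors and pocket proteins that bind them, 12 were tested, 7 were lower and 2 higher in A-iSCs (29.6% and 25.2% of all tested genes). E2f8, a repressor of the family, was the lowest (-1.59, adjusted p = 2.03e-05). Rbl2, the pocket protein p130 that is abundant in resting cells, was the highest, at 2.73 ± 0.181 FPKM in ASTs, 7.83 ± 2.59 in A-iSCs, 12.5 ± 0.501 in P56-NPCs and 3.33 ± 0.170 in P0-NPCs (1.20 for A-iSCs over ASTs, adjusted p = 0.00178). All 10 mitotic genes were lower in A-iSCs, with a median log2 fold change of -2.11, from Plk1, a kinase of mitotic entry (-2.92, adjusted p = 1.04e-05), to the kinetochore gene Cenpf (-1.68, adjusted p = 4.45e-05). By mean FPKM Cenpf did not change least: it fell from 4.91 to 0.851, a larger ratio than Mki67, from 15.1 to 3.90. The same 10 mitotic genes were lower than in ASTs in both NPC groups, with medians of -2.68 in P56-NPCs (39.8% of all tested genes were lower) and -1.04 in P0-NPCs (40.9%).

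Markers of several cell types moved with the groups. Between ASTs and A-iSCs, the 8 astrocyte markers gave 7 higher and 0 lower (25.2% and 29.6% of all tested genes), and the 6 neural stem or precursor markers gave 3 higher and 1 lower. The lower one was Nes, at 196 ± 13.4 FPKM in ASTs, 70.1 ± 5.01 in A-iSCs, 3.76 ± 0.246 in P56-NPCs and 26.9 ± 0.914 in P0-NPCs. All 6 microglia markers were higher, with sums of 21.2 to 26.4 FPKM in ASTs and 201 to 265 FPKM in A-iSCs. The 4 fibroblast markers summed to between 145 and 195 FPKM in ASTs, between 3.63 and 4.78 FPKM in A-iSCs, between 4.28 and 9.38 FPKM in P56-NPCs and between 76.5 and 86.5 FPKM in P0-NPCs. In ASTs nearly all of that sum was Col1a1, at 158 ± 24.2 FPKM, with Col1a2 at 15.03 ± 1.77, Dcn at 0.248 ± 0.0338 and Lum at 0.0374 ± 0.0454 FPKM. In P0-NPCs Col1a1 was lower and the other 3 were higher than in ASTs, with Dcn at 11.96 ± 0.897 and Lum at 7.42 ± 0.640 FPKM. The 6 neuron markers summed to between 748 and 901 FPKM in P0-NPCs and to between 181 and 222 FPKM in P56-NPCs, and the 3 red blood cell markers to between 132 and 277 FPKM and between 300 and 470 FPKM. Most of the neuron sum in P0-NPCs was Tubb3, at 634 ± 84.2 FPKM against 76.8 ± 7.64 in P56-NPCs. Of the 6 neuron markers, 3 were higher in P0-NPCs than in P56-NPCs and 2 were lower (39% and 39.7% of all tested genes). The lower ones were Map2, at 41.7 ± 6.02 against 71.1 ± 7.10 FPKM, and Snap25, at 14.9 ± 1.20 against 33.7 ± 2.99 FPKM. Oligodendrocyte precursor markers summed to 441 FPKM in each P56-NPC sample and to at most 132 FPKM elsewhere, ependymal markers to between 202 and 263 FPKM in P56-NPCs and at most 82.8 FPKM elsewhere, and endothelial and pericyte markers to between 114 and 123 FPKM in P0-NPCs and at most 16.02 FPKM elsewhere. In ASTs Cldn5 and Hbb-bs were at 0 in all samples, and red blood cell markers summed to at most 0.143 FPKM. The part of these cell types in the levels of the 36 genes was not tested.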

How the data were processed

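RNA of the 12 samples was prepared with the NEBNext Ultra chemistry and sequenced from both ends on an Illumina HiSeq. The deposited values are FPKM per gene and sample, made by the authors, with gene lengths and positions. The submitters' processing notes name Bowtie 0.12.2 and mm8, but 54899 of 55154 gene identifiers shared with GENCODE M21 lie at their GRCm38 positions. The counter and its use of strand are not given in the sources used here. FPKM multiplied by gene length gave whole fragments (tolerance 0.05), and the library size used by the authors was 0.744 to 1.218 times the counted total, so samples had already been scaled by a median of ratios. Because the table holds FPKM and not counts, the DESeq2 test named in the study's methods was not run.

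Pairs of groups were compared with limma 3.58.1 (R 4.3.3; lmFit, eBayes with trend) on log2(FPKM + 1), so fold changes on this scale understate those of low genes. Genes with a mean of at least 1 FPKM in either group were tested, and p-values were adjusted over all of them by the Benjamini-Hochberg method. Ratios of members were compared by exact two-sided permutation over samples (scipy 1.17.1). Floors and fragment counts cover counting error only. The scripts were tested on simulated data. Members, gene lists and marker lists were chosen with earlier results of these data known. Values of every sample are given for the member with the lowest and the highest log2 fold change of A-iSCs over ASTs in each role and for Pcna, Mcm2, Mcm6, Rrm2 and Tyms, and the lowest and highest gene are named for each pathway list. Alternatives were other scalings, no filter, another pseudocount, a fit over all groups, a replicate block, limma-voom on recovered fragments, stricter thresholds and leaving out each sample.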

Additional observations from a re-analysis of the deposited data

How the results depend on the processing

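The counts of members called stayed within 1.5 times of those reported under upper-quartile scaling, TMM scaling, no filter, a pseudocount of 0.1, all 4 groups in the fit, limma-voom on recovered fragments and an adjusted p under 0.01. Scaling by total fragments raised the count for A-iSCs over P56-NPCs from 17 to 28, as it moved the median log2 fold change of all genes from 0.03 to 0.49, and it moved that median to 0.13 for A-iSCs over ASTs, -0.34 for P56-NPCs over ASTs, 0.21 for P0-NPCs over ASTs and 0.53 for P0-NPCs over P56-NPCs. Upper-quartile scaling moved it to between -0.17 and -0.16 in the 3 comparisons with ASTs. With a log2 fold change beyond 1 also required, 15 members remained called for A-iSCs over ASTs, 4 for P0-NPCs over ASTs, 3 for A-iSCs over P56-NPCs, 7 for A-iSCs over P0-NPCs and 13 for P0-NPCs over P56-NPCs, since that rule can only remove calls. Leaving out each sample in turn gave 30 to 33 calls for A-iSCs over ASTs, 33 to 34 for P56-NPCs over ASTs, 22 to 26 for P0-NPCs over ASTs, 13 to 19 for A-iSCs over P56-NPCs, 22 to 26 for A-iSCs over P0-NPCs and 30 to 31 for P0-NPCs over P56-NPCs.

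Every change of direction was of a member that had not passed the test, and the cause was not tested. Scaling by total fragments gave log2 fold changes of 0.11 for Rfc1 and 0.0647 for Rfc2 in A-iSCs over ASTs, of 0.13 for Mcm6, 0.0366 for Orc6, 0.24 for Rfc2, 0.19 for Rfc5, 0.24 for Prim1 and 0.22 for Lig1 in P0-NPCs over ASTs, of 0.44 for Mcm4, 0.43 for Gins4, 0.48 for Rfc1 and 0.37 for Pold1 in A-iSCs over P56-NPCs, and of -0.0353 for Gins2 and -0.0250 for Pcna in A-iSCs over P0-NPCs. TMM scaling gave 0.00115 for Rfc2 and 0.0156 for Prim1 in P0-NPCs over ASTs, and 0.0498 for Mcm4, 0.0101 for Gins4, 0.0854 for Rfc1 and 0.0466 for Pold1 in A-iSCs over P56-NPCs. Upper-quartile scaling gave -0.0228 for Pold1 in P0-NPCs over ASTs and 0.00533 for Rfc1 in A-iSCs over P56-NPCs, where a pseudocount of 0.1 gave -0.00157 for Pola1. With a sample left out, log2 fold changes in P0-NPCs over ASTs ran from -0.0379 to 0.0153 for Rfc2, -0.0649 to 0.0449 for Prim1, -0.0110 to 0.154 for Pold1 and -0.0915 to 0.00174 for Lig1. In A-iSCs over P56-NPCs they ran from -0.222 to 0.0437 for Mcm4, -0.150 to 0.0501 for Rfc1, -0.0195 to 0.176 for Rfc2, -0.154 to 0.118 for Pola1, -0.118 to 0.0923 for Pold1 and -0.185 to 0.208 for Rrm1. In A-iSCs over P0-NPCs they ran from -0.00929 to 0.0558 for Gins2, -0.186 to 0.0102 for Rfc2 and -0.254 to 0.0183 for Pola1.

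The replicate numbers were not found to pair the samples: deviations from the group means of same-numbered A-iSCs and ASTs correlated at -0.422, 0.372 and 0.484 for numbers 1, 2 and 3, and in no comparison was every such correlation over 0.1. With the replicate number as a block, 32, 33, 24, 14, 22 and 30 members were called for A-iSCs over ASTs, P56-NPCs over ASTs, P0-NPCs over ASTs, A-iSCs over P56-NPCs, A-iSCs over P0-NPCs and P0-NPCs over P56-NPCs. Counting limited the low members in P56-NPCs, with 6 to 19 fragments per sample for Orc1, 8 to 18 for Pole2, 10 to 16 for Fen1 and 21 to 28 for Cdc6.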
